A study of Mus musculus with 4 samples.

Results

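The genes described here write, maintain, read and remove DNA methylation, and they were taken by name from the gene tables of 4 regulatory T cell libraries. All 10 named genes were found among the 50600 genes listed. They are Dnmt1 and Uhrf1, which maintain methylation, Dnmt3a, Dnmt3b and Dnmt3l of the de novo branch, the oxidising enzymes Tet1, Tet2 and Tet3, the DNA glycosylase Tdg and the methyl-CpG reader Mbd2. The choice used their names and not their levels, although earlier results of the same libraries were known when it was made.

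The libraries were made from RNA of mouse primary regulatory T cells of the C57BL/6NJ strain, a class of CD4+ lymphocyte that dampens immunity and is specified by Foxp3. All 4 form a single group, with no allele, agent or time point given for it in the labels, the sex not collected and the age unknown. The labels link a differentiation protocol for CD4+ T cells, and the names of the alignments in the file headers carry the words activated and 48h, while the labels themselves name no activation. Each library has its own biosample and all share 1 donor record. The labels do not say which biosamples came from separate animals or cultures, so every spread and p below describes these samples and may be partly technical.

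Mammalian DNA carries methyl groups mostly on the cytosine of CpG pairs. When DNA is replicated, Uhrf1 recognises the hemimethylated sites left behind and brings in Dnmt1, which copies the mark to the new strand, whereas Dnmt3a and Dnmt3b place methyl groups on unmarked sites. Tet enzymes oxidise the methyl group and Tdg cuts out the oxidised bases. In regulatory T cells the loss of methylation at enhancers of Foxp3 and a few other genes is known to go with a stable identity, and the Tet enzymes and the maintenance machinery have both been linked to it.

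Depth lay between 43821767 and 73819468 counts per library. All 9 regulatory T cell markers and all 8 pan T cell markers were expressed, led by Il2ra at 1488 ± 19.4 TPM and Trac at 1053 ± 43.9 TPM (SD, n = 4). Summed TPM per library was 4419 to 4511 for the regulatory T cell markers and 3952 to 4062 for the pan T cell markers. The 6 markers of CD8 and natural killer cells summed to 1.90 to 2.74 TPM, with none expressed, Eomes the highest and Ncr1 at 0 counts. The 6 B cell markers summed to 3.36 to 4.25 TPM, of which Cd79b, the only 1 expressed, made up most at a mean of 3.11 TPM. The 6 markers of macrophages and dendritic cells summed to 1.15 to 2.02 TPM. Adgre1 was the highest and the only 1 expressed, at a mean of 1.30 TPM, with Lyz2 and Fcgr1 at 0 counts. The 6 granulocyte markers summed to at most 0.0543 TPM, 5 of them were at 0 counts in every library (S100a8, S100a9, Elane, Mpo and Csf3r) and Ngp had 1 count. The 6 erythroid and stromal markers summed to 7.54 to 10.03 TPM, with Hba-a1 and Hbb-bs at 0 counts. Most of it was Pecam1, the only 1 expressed, at a mean of 7.99 TPM. The X-linked RNA Xist had 172, 145, 0.255 and 0.367 TPM in the 4 libraries by replicate number, and the Y-linked gene Ddx3y had 0.152, 0.0781, 45.1 and 45.0 TPM. Replicates 1 and 2 were thus high in Xist and near 0 in Ddx3y, and replicates 3 and 4 the reverse, so the libraries came from at least 2 sources that differ in sex. This difference runs through each comparison of a library with the other 3 below, no groups were formed from it, and its part in the spread was not tested. In bulk samples such as these, fewer cells that express a gene cannot be told apart from less RNA per cell.

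Levels are in TPM, which here is the count per base of exon scaled to a fixed sum in each library. A gene counted as expressed where every library reached 1 TPM. By that rule 9 of the 10 genes were expressed, where 22.9% of all genes listed were. The listed genes are of every type, while all 10 genes here are protein-coding, and the share among protein-coding genes was not computed. Dnmt3l was the exception, with 0 counts in every library. The median gene of the 10 averaged 34.8 TPM, against 28.6 TPM for the median of all 11593 expressed genes.

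The maintenance pair stood far above the rest, and the silent Dnmt3l at the other end. The start regions of these genes of both ends of this order are shown because the windows printed differ in CpG content and in a short motif. RefSeq windows on GRCm38.p6, the build of mm10, run from 250 bases before to 50 bases after a start. They were found for 9 of the 10 genes, 16 windows in all, with none for Mbd2, and of each gene shown the window with the most CpG pairs is printed. The capitals mark TTTCGCGC or TTTGGCGC read on either strand. Both are forms of the site recognised by E2F factors, which drive genes of DNA replication.
Dnmt1, chr9:20952574-20952873, minus strand: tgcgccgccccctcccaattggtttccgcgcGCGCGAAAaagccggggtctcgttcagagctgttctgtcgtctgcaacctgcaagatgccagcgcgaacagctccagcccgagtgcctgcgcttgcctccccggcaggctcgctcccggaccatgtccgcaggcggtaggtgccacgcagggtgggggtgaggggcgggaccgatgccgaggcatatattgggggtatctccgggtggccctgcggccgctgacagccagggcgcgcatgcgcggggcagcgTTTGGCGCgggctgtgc
Uhrf1, chr17:56304063-56304362, plus strand: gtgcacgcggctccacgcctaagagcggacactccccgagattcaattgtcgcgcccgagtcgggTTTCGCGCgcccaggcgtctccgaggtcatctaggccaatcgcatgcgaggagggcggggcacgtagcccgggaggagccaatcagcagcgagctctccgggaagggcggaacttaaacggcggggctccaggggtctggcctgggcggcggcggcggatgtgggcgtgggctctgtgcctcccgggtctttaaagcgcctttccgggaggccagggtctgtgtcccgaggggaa
Dnmt3l, chr10:78042037-78042336, plus strand: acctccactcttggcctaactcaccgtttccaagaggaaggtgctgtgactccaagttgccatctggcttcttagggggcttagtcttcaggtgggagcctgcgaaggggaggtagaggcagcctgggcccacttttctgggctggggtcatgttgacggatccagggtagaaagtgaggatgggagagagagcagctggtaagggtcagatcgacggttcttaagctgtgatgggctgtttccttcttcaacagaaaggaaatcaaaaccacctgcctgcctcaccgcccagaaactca

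The Dnmt1 and Uhrf1 windows above each held 33 CpG pairs, and the Dnmt3l window held 6. The ratio of observed to expected CpG was 0.91 for Dnmt1, 0.959 for Uhrf1 and 0.272 for Dnmt3l. The other 2 windows of Dnmt3l had ratios of 0.219 and 0.114. Those not printed for Dnmt1 had 0.101 and 0.5, and the one not printed for Uhrf1 had 0.472. The contrast in CpG content thus holds for the windows printed and not for every window of these genes. A GC content over 50% with a ratio over 0.6 was found in 8 of the 16 windows, from 7 of the 9 genes, and in 33.3% of all 32851 windows. The highest ratio was that of Tet2 at 1.17, and Tet3 lay just below the limit at 0.576. Dnmt3l missed by a wide margin in all 3 windows, and the windows of Dnmt1 and Uhrf1 that are not printed missed as well.

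The search covered 4 forms of the motif, TTTCCCGC, TTTCGCGC, TTTGCCGC and TTTGGCGC, on both strands, and was made after the levels were known. At least 1 form stood in 2.26% of all windows. All 4 forms contain a CpG pair, and this share was not matched for CpG content. Among the 16 windows of the genes described here, 2 held a form, those printed for Dnmt1 and Uhrf1. TTTCGCGC, the form held by both, stood in 0.323% of all windows, and TTTGGCGC in 0.514%. These are matches of letters in a fixed window and do not show that a factor binds there.

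Dnmt1 (ENSMUSG00000004099.16, chromosome 9, 20907209 to 20959888 of mm10, minus strand) encodes the maintenance methyltransferase. It had 398, 343, 361 and 386 TPM in replicates 1 to 4, a mean of 372 ± 24.6 TPM (SD, n = 4). It was thus higher than 96.3% of expressed genes. The values rest on 37072 to 57671 counts per library, which alone would give a coefficient of variation of 0.476%, where 6.61% was seen.

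Uhrf1 (ENSMUSG00000001228.14, chromosome 17, 56303321 to 56323486, plus strand) encodes the protein that guides Dnmt1 to replicated DNA. It had 399, 338, 356 and 379 TPM in replicates 1 to 4, a mean of 368 ± 26.7 TPM (SD, n = 4). The ranges of Uhrf1 and Dnmt1 overlapped almost completely, and both were highest in replicate 1 and lowest in replicate 2. Within a library Uhrf1 stood at 0.990 ± 0.00953 times Dnmt1, a spread far smaller than that of either gene. On the log2 scale the difference, Uhrf1 minus Dnmt1, was -0.02 ± 0.01, positive in 1 library of 4. A two-sided exact permutation test that flips signs gave p = 0.25, and 0.25 after Benjamini-Hochberg adjustment over 8 comparisons. With the longest annotated transcript as the length, the difference became -0.10. A stretch of 1590 bases of the Uhrf1 transcript, 44.3% of it, matched the gene Gm5648 at 98.3% identity. Fragments that fit both are not in the counts, so Uhrf1 may be undercounted, and Gm5648 itself had 133 counts over all libraries.

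By distance over the 4 libraries on the log2(TPM + 1) scale, the protein-coding genes most like Dnmt1 were Larp1, Uhrf1 and Rbm38. Their means were 373 ± 20.6, 368 ± 26.7 and 367 ± 17.9 TPM (SD, n = 4), at distances of 0.0335, 0.0384 and 0.0574. This measure ranks mostly by level, and 4 libraries say little about shared variation.

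**Figure D1:**
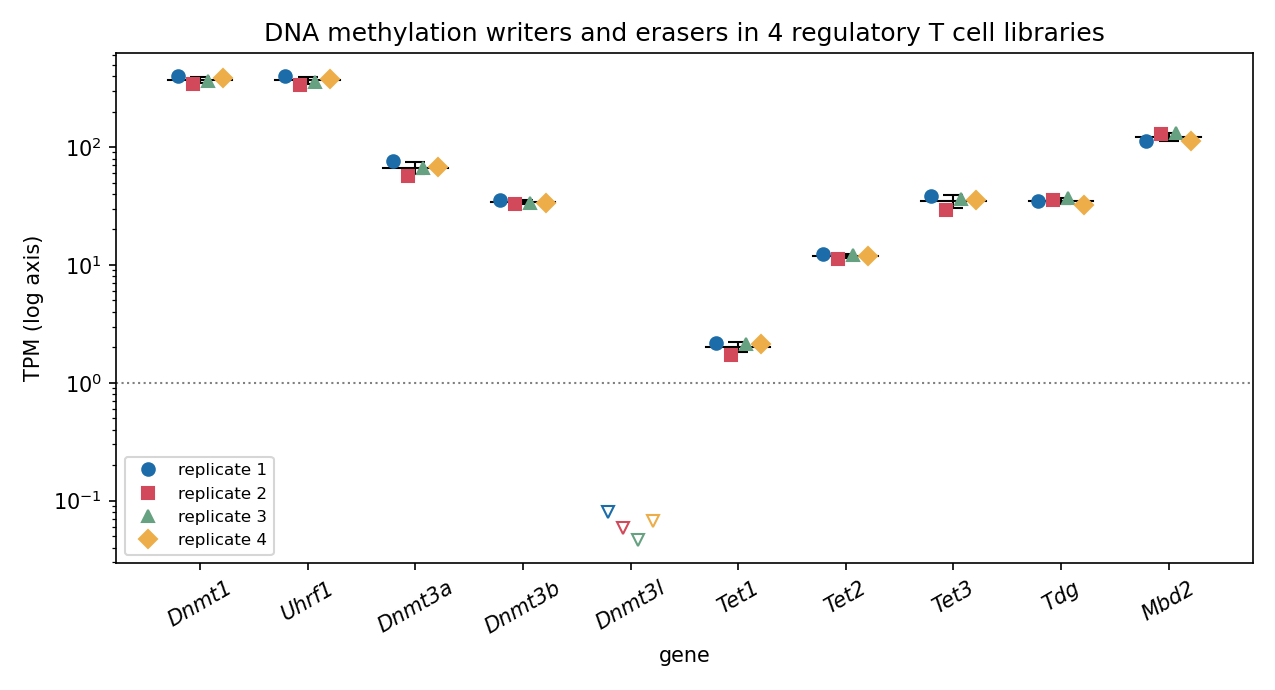
TPM on a log axis for the 10 genes in each of the 4 libraries, with coloured points for replicates 1 to 4 and black bars for the mean and SD. The 9 expressed genes lie above the dotted line at a TPM of 1, from Tet1 near 2.03 to Dnmt1 at 372, while the open triangles for Dnmt3l mark the TPM that 3 counts would give, since it had 0 counts.

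The de novo enzymes were present at lower levels, and their cofactor was not detected. Dnmt3a (ENSMUSG00000020661.15, chromosome 12, 3806007 to 3914443, plus strand) had 76.6, 57.0, 66.2 and 67.2 TPM in replicates 1 to 4, a mean of 66.8 ± 8.03 TPM (SD, n = 4). Dnmt3b (ENSMUSG00000027478.15, chromosome 2, 153649450 to 153687730, plus strand) had 35.9, 33.1, 33.7 and 33.6 TPM, a mean of 34.1 ± 1.22 TPM (SD, n = 4). Dnmt3a exceeded Dnmt3b in every library and varied more, with a coefficient of variation of 12.03% for Dnmt3a and 3.58% for Dnmt3b. Of the expressed genes, 78.3% varied less than Dnmt3a and 18.1% less than Dnmt3b.

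Dnmt3l (ENSMUSG00000000730.13, chromosome 10, 78041947 to 78063622, plus strand) encodes a protein without catalytic activity of its own that stimulates Dnmt3a and Dnmt3b in germ cells and early embryos. Its 0 counts allow up to 0.0795 TPM in the library where 3 counts weigh most. Against that limit taken library by library, Dnmt3a was at least 964-fold higher and Dnmt3b at least 451-fold higher. An exon overlap on the opposite strand with Aire covers 2.24% of Dnmt3l, and the stranded counting keeps the 2 apart. Dnmt3c, a relative of Dnmt3b active in male germ cells of rodents, likewise had 0 counts, with a limit of 0.107 TPM.

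Dnmt1 made up 78.7 ± 0.65% of the summed Dnmt TPM, Dnmt3a 14.1 ± 0.79% and Dnmt3b 7.23 ± 0.33% (SD, n = 4). Dnmt3a minus Dnmt1 was -2.46 ± 0.09 in log2(TPM + 1), with Dnmt1 at 5.60 ± 0.36 times Dnmt3a. Dnmt3b minus Dnmt1 was -3.41 ± 0.07, with Dnmt1 at 10.9 ± 0.49 times Dnmt3b. Dnmt3b minus Dnmt3a was -0.94 ± 0.13. Each of these differences was negative in 4 of 4 libraries. The exact permutation p was 0.12, which no design of 4 libraries can undercut, and 0.143 after adjustment over the 8 comparisons.

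Among the oxidising enzymes Tet3 was the most abundant transcript and Tet1 the scarcest. Tet3 (ENSMUSG00000034832.15, chromosome 6, 83362373 to 83459084, minus strand) had 38.6, 29.1, 36.2 and 35.3 TPM in replicates 1 to 4, a mean of 34.8 ± 4.08 TPM (SD, n = 4). Tet2 (ENSMUSG00000040943.12, chromosome 3, 133463679 to 133545139, minus strand) had 12.3, 11.2, 12.2 and 11.9 TPM, a mean of 11.9 ± 0.525 TPM (SD, n = 4). Tet1 (ENSMUSG00000047146.16, chromosome 10, 62804570 to 62908996, minus strand) had 2.17, 1.72, 2.13 and 2.12 TPM, a mean of 2.03 ± 0.209 TPM (SD, n = 4). The ranges of the 3 genes did not overlap, and replicate 2 was the lowest library for each.

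Tet1 rested on 412 to 694 counts per library, so counting error alone gives a coefficient of variation of 4.53%, where 10.3% was seen. It was the expressed gene closest to the threshold, higher than 4.26% of expressed genes, and with FPKM in place of TPM it averaged 0.592 and would not have been called expressed. Tet3 held 71.3 ± 1.45% of the summed Tet TPM, Tet2 24.5 ± 1.46% and Tet1 4.17 ± 0.10% (SD, n = 4). By the same distance measure, the protein-coding genes most like Tet2 were March2, Ears2 and Mef2a, at 11.7 ± 0.636, 11.9 ± 0.746 and 12.1 ± 0.618 TPM (SD, n = 4).

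Tet1 minus Tet2 was -2.09 ± 0.05 in log2(TPM + 1), and Tet1 minus Tet3 was -3.56 ± 0.07, both below 0 in 4 of 4 libraries. Tet3 minus Tet2 was 1.47 ± 0.11, above 0 in 4 of 4 libraries, with Tet3 at 2.92 ± 0.22 times Tet2. As sums, the Tet genes stood at 48.7 ± 4.79 TPM and the Dnmt genes at 473 ± 33.2 TPM (SD, n = 4). Tet minus Dnmt was -3.25 ± 0.07 on the log2 scale and -1.04 when Dnmt1 was left out of the sum, below 0 in 4 of 4 libraries in the full sum. For these 4 comparisons the exact permutation p was again 0.12, and 0.143 after adjustment. They set transcripts side by side and do not measure methylation or enzyme activity.

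**Figure D2:**
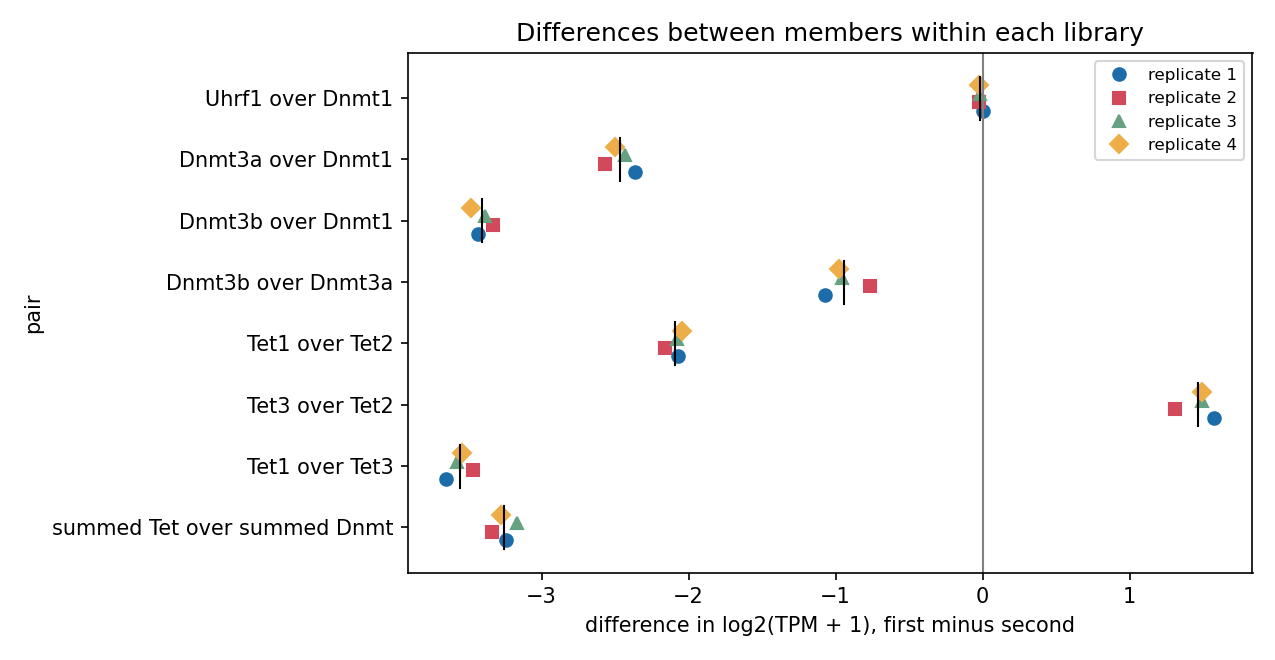
Difference in log2(TPM + 1) between the genes named on the vertical axis, first minus second, in each library, with a black line at the mean of the 4. Uhrf1 over Dnmt1 sits at -0.02, Tet3 over Tet2 is the comparison above 0 at 1.47, and the other 6 lie between -3.56 and -0.94.

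Tdg (ENSMUSG00000034674.18, chromosome 10, 82629828 to 82650799, plus strand) encodes thymine DNA glycosylase, which removes the bases that Tet enzymes make at the end of their oxidation steps. It had 35.2, 35.2, 37.0 and 32.1 TPM in replicates 1 to 4, a mean of 34.9 ± 2.04 TPM (SD, n = 4). Replicate 3 was the highest and replicate 4 the lowest. Its level is uncertain, since 95.2% of its longest transcript matched other genes at 95% identity or more. The longest such match was 2968 bases of Tdg-ps at 98.7% identity, a copy that itself had 43 counts over all libraries. Fragments that fit Tdg and a copy equally well are not in the counts.

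Mbd2 (ENSMUSG00000024513.16, chromosome 18, 70568189 to 70626131, plus strand) binds methylated CpG pairs and recruits the NuRD complex, which removes acetyl groups from histones. It had 114, 129, 132 and 113 TPM in replicates 1 to 4, a mean of 122 ± 10.1 TPM (SD, n = 4). Replicates 2 and 3 were high and replicates 1 and 4 low, with a gap between them that Tdg, in the same order of libraries, did not have.

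Ordered by mean TPM, the genes ran Dnmt1, Uhrf1, Mbd2, Dnmt3a, Tdg, Tet3, Dnmt3b, Tet2, Tet1 and Dnmt3l. Of the 9 neighbouring pairs in that order, 3 had ranges that overlapped, namely Dnmt1 with Uhrf1, Tdg with Tet3 and Tet3 with Dnmt3b. Tdg, Tet3 and Dnmt3b thus lay at 34.1 to 34.9 TPM and did not differ beyond their spread. The length used moved some levels, because the deposited length sums all exons of a gene. With the longest transcript, Dnmt3a averaged 90.7 ± 10.96 TPM, Tet2 17.3 ± 0.769, Tet3 42.1 ± 4.95, Tdg 42.3 ± 2.49 and Mbd2 158 ± 13.2 (SD, n = 4). Dnmt1 at 369 ± 24.5 TPM hardly moved, and Dnmt3b, at 31.9 ± 1.17 TPM, then lay further below Tdg and Tet3. With that length Tet2 was 1.45 times and Dnmt3a 1.36 times its level by exon length.

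**Figure D3:**
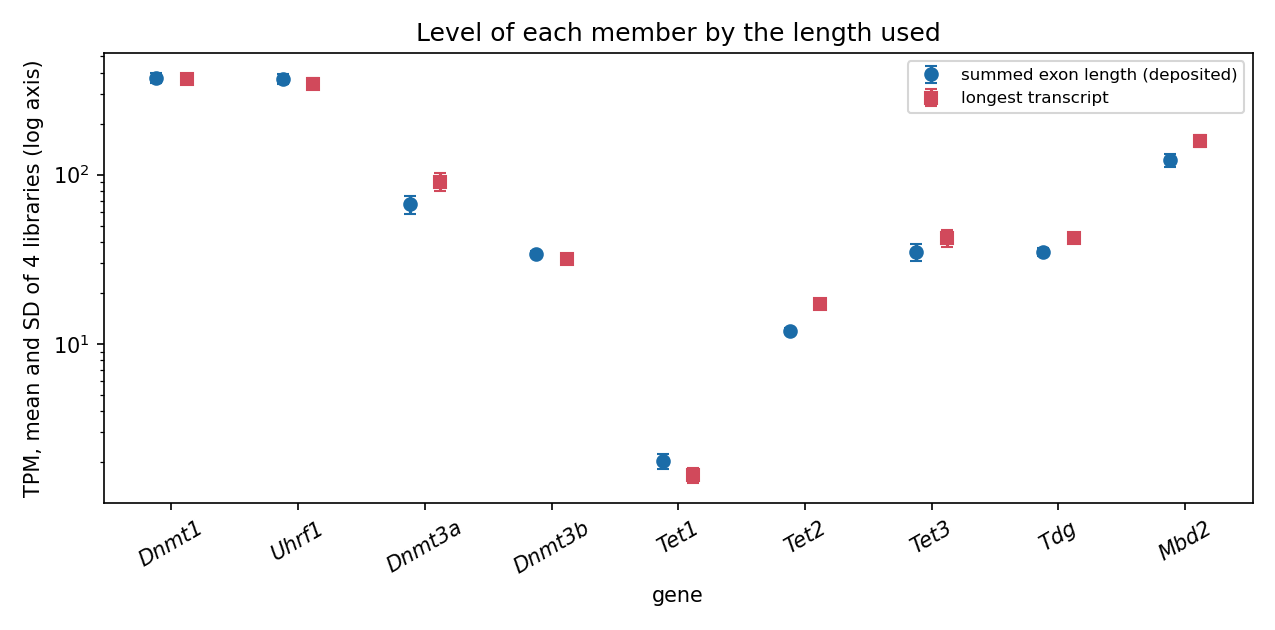
TPM (log axis) of the 9 expressed genes as mean and SD of the 4 libraries, with the deposited exon length as circles and the longest annotated transcript as squares. Tet2 and Dnmt3a show the largest steps upward, to 17.3 and 90.7 TPM, and Tet1 the largest step downward, to 1.68 TPM.

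The other genes of these pathways were mostly expressed as well. All 10 partners of maintenance at replicated DNA were expressed, with a median of 157 TPM. They were led by the sliding clamp Pcna at 508 ± 21.6 TPM and the ligase Lig1 at 298 ± 20.1 TPM, with the histone methyltransferase Ehmt1 the lowest at 52.3 ± 1.20 TPM (SD, n = 4). All 20 S phase genes were expressed too, at a median of 167 to 175 TPM per library and of 172 TPM over their means, below Dnmt1 and Uhrf1. The highest were Rrm2, a ribonucleotide reductase subunit, at 597 ± 9.43 TPM and the helicase subunit Mcm3 at 519 ± 32.0 TPM, and Dtl was the lowest at 28.1 ± 0.631 TPM. Uhrf2, a relative of Uhrf1, stood at 34.2 ± 2.13 TPM, and the tRNA methyltransferase Trdmt1 at 7.57 ± 0.284 TPM.

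The list of other readers of methylated DNA also holds family relatives taken by name, whose binding to methylated DNA was not measured. All 9 of its genes were expressed, at a median of 14.1 TPM. Mbd3, which sits in NuRD in place of Mbd2, was the highest at 314 ± 7.69 TPM, followed by Mbd1 at 65.3 ± 3.36 TPM, and Mbd5 was the lowest at 4.18 ± 0.194 TPM. Mbd2 thus lay between Mbd3 and Mbd1. All 11 NuRD partners were expressed, at a median of 173 TPM, with the histone-binding Rbbp7 at 540 ± 24.2 TPM, the remodeller Chd4 at 422 ± 26.0 TPM and Mta3 the lowest at 41.6 ± 1.80 TPM.

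Of 13 genes listed for base excision repair, 12 were expressed, at a median of 31.1 TPM. These include Gadd45a and Gadd45b, taken by name, whose part in this repair was not measured. The endonuclease Apex1 at 369 ± 11.5 TPM and Parp1 at 256 ± 12.3 TPM were the highest, and the glycosylase Neil2 at 0.784 ± 0.194 TPM was the one not called. All 10 genes of the methyl donor cycle were expressed, led by Shmt2, a mitochondrial enzyme of serine metabolism, at 873 ± 68.5 TPM and Mat2a, which makes the methyl donor S-adenosylmethionine, at 342 ± 19.4 TPM. Of 12 Tet cofactor genes and regulators, 9 were expressed, at a median of 31.8 TPM, led by the isocitrate dehydrogenase subunits Idh3g at 149 ± 2.73 TPM and Idh3b at 138 ± 4.04 TPM, and Cxxc4 was at 0 counts against a limit of 0.0177 TPM.

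Genes of the germ line that promoter methylation is known to silence in somatic cells were not expressed, 0 of 12, and 7 of them had 0 counts in every library. Dazl was the highest at 0.204 ± 0.0814 TPM and Ddx4 followed at 0.190 ± 0.153 TPM (SD, n = 4), from 40 and 39 counts over all libraries. Mael had 0 counts against a limit of 0.137 TPM. All 6 genes with regulatory T cell specific demethylated regions were expressed, led by Il2ra at 1488 ± 19.4 TPM and Tnfrsf18 at 580.2 ± 18.2 TPM. Ikzf2 was the lowest at 13.2 ± 1.99 TPM. These 6 also belong to the regulatory T cell markers counted above, so their expression is not a separate result. Neither list tests a link between expression and methylation. Methylation at these genes was not measured.

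Between libraries the genes described here varied about as much as others, and most of them shared the same extremes. The common biological coefficient of variation, the spread beyond counting error over all genes tested, was 0.0852 in edgeR. Those of the 9 genes ran from 0.0559 for Dnmt3b to 0.105 for Tet1. Setting each library against the other 3 over 12917 genes, edgeR's quasi-likelihood test called none of the 9 genes at a Benjamini-Hochberg adjusted p below 0.05. Called genes made up 0.0697% of all those tested for replicate 1, 0.0% for replicate 2, 0.0232% for replicate 3 and 0.0% for replicate 4. No other gene of the lists above was called. Such a test compares libraries, not conditions, and Dnmt3l was not tested.

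At an unadjusted p below 0.05 in edgeR, 2 of the 9 genes differed in replicate 1 and 2 in replicate 2, where 9.31% and 6.78% of all tested genes did. None did in replicates 3 and 4, where 2.31% and 2.49% of all tested genes did. In both libraries these were Tet3 and Dnmt3a. Tet3 in replicate 2 differed from the other 3 libraries by -0.34 (SE 0.07) on the log2 scale and Dnmt3a by -0.29 (SE 0.09), with adjusted p of 0.37 and 0.639 in edgeR. In replicate 1 Tet3 differed by 0.20 (SE 0.09) and Dnmt3a by 0.27 (SE 0.09), with adjusted p of 0.456 and 0.32 in edgeR. The call for Tet3 in replicate 2 rests on the method, with an adjusted p of 0.0147 in DESeq2, 0.0151 in edgeR without a filter on low counts and 0.037 in edgeR without replicate 1, within a range of 0.0147 to 0.53 over the alternatives. Without replicate 4, edgeR called Dnmt3a and Tet3 in replicate 1, with adjusted p of 0.0149 and 0.0309, where the alternatives ranged from 0.0149 to 0.449 for Dnmt3a and from 0.0309 to 0.746 for Tet3. DESeq2 on all libraries called none of the 9 genes in replicates 3 and 4. It called none in replicate 1 of the 5 to which it gave an adjusted p, with none given for Dnmt3b, Tet1, Tet2 and Tdg, and in replicate 2 none was given for Tet1.

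The 6 expressed Dnmt and Tet genes and Uhrf1, 7 genes in all, had their highest TPM in replicate 1 and their lowest in replicate 2. Tdg and Mbd2 did not. Both extremes lay in libraries high in Xist. Of all 11593 expressed genes, 13.9% had these extremes. With CPM on TMM-scaled library sizes the count was 6, Tet2 dropping out. The pattern was noticed in these values and no test was made of it.

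**Figure D4:**
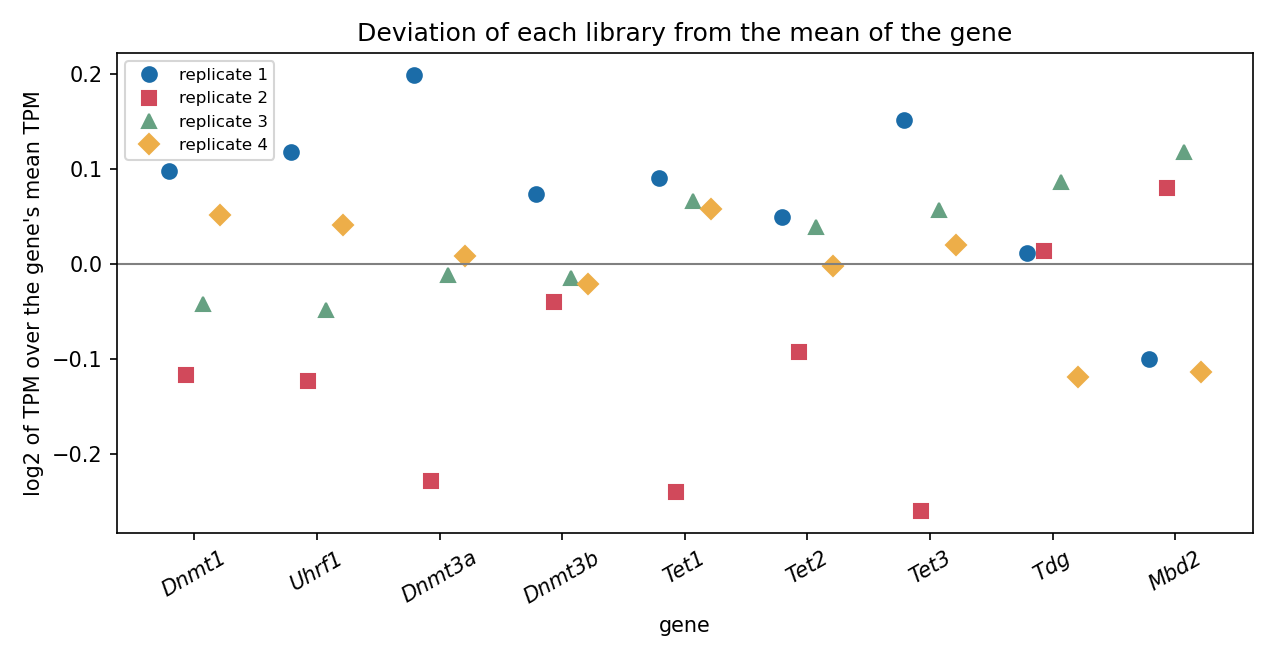
Log2 of each library's TPM over the gene's mean TPM for the 9 expressed genes, with points for replicates 1 to 4. Replicate 1 is the highest and replicate 2 the lowest for Dnmt1, Uhrf1, Dnmt3a, Dnmt3b, Tet1, Tet2 and Tet3, reaching -0.26 for Tet3 in replicate 2, whereas Tdg and Mbd2 are highest in replicate 3 and lowest in replicate 4.

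Gene length and base composition moved with the same extremes across the transcriptome. Among expressed genes the share with these extremes was 7.38% in the class with the shortest exon sums, of 4 equal classes, and 22.5% in the class with the longest. By GC content of the transcript it was 5.39% in the lowest of 4 classes and 22.8% in the highest, and 41.95% among the 994 genes with the longest exons and a GC content above the median. The Tet genes and Dnmt3a had longer exon sums than at least 98.15% of expressed genes, from 15065 bases for Tet1 to 16870 for Tet2. Their GC content ran from 43.7% for Tet1 to 53.5% for Tet3, so Tet1 and Tet2, at 45.4%, lay below the median while sharing the extremes. Dnmt1 and Uhrf1 had GC contents of 54.0% and 53.7%. Mbd2, without the extremes, had the highest GC content of the 10 at 56.5%, and 3214 bases of exon. Tdg, also without them, had a GC content of 47.9% and 5374 bases. Of the other genes with the extremes, Dnmt1 had 7377 bases, Dnmt3b 5106 and Uhrf1 4259, the last 2 fewer than Tdg. The part of length and base composition in the shared extremes was not tested.

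**Figure D5:**
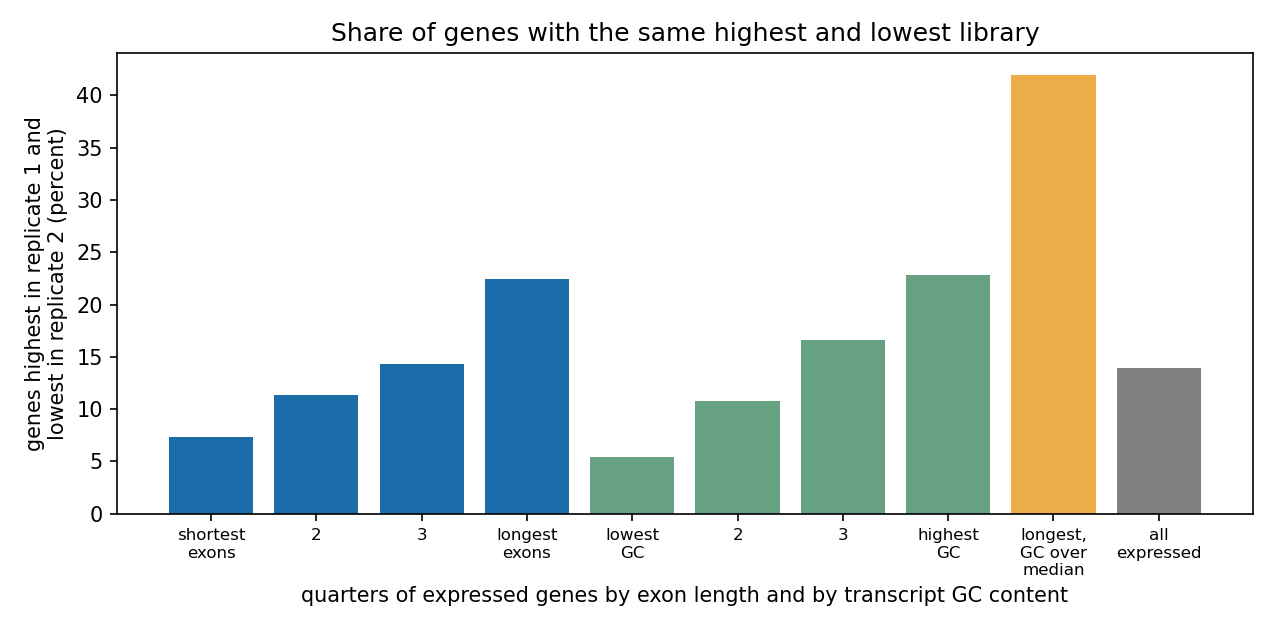
Percent of expressed genes with the highest TPM in replicate 1 and the lowest in replicate 2, by 4 classes of exon length (blue), by 4 classes of transcript GC content (green), for the longest class with GC content above the median (yellow) and for all expressed genes (grey). The share climbs from 7.38% to 22.5% with exon length and from 5.39% to 22.8% with GC content, against 13.9% of all expressed genes.

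Beside the 13.9% of all expressed genes, the lists around these genes hold few genes each. The same extremes were seen in 3 of 20 S phase genes, 1 of 10 partners of maintenance and 4 of 11 NuRD partners. These extremes were also seen in 3 of 12 expressed genes listed for base excision repair, Gadd45b among them. The methyl donor cycle had 3 of 10, the other readers and relatives 1 of 9 and the Tet cofactors and regulators 1 of 9. Of the methyltransferase relatives 0 of 2 had them, and of the genes with regulatory T cell demethylated regions 1 of 6. Among markers they were seen in 2 of 9 for regulatory T cells and 1 of 8 for T cells in general. Pcna had 481, 532, 516 and 503 TPM in replicates 1 to 4, the reverse order to Dnmt1 at its ends. Lig1 had 320, 273, 293 and 304 TPM, the same order as Dnmt1 throughout.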

How the data were processed

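RNA of 4 regulatory T cell biosamples was sequenced. The labels name total RNA, while the linked library protocol is named for polyadenylated RNA. The authors deposited raw fragment counts for each gene. Per the file headers, featureCounts 1.4.6-p4 counted paired, reverse-stranded fragments with both ends aligned over GENCODE M13 exons on mm10, without those that map more than once. No version of the aligner is given.

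From these counts and the deposited exon lengths TPM was computed (Python 3.11.15). The symbols matched 50376 of 50600 gene identifiers in GENCODE M21, and the 224 others held at most 0.00963% of a library's counts. Each library was set against the other 3 with edgeR 4.0.16 in R 4.3.3 (TMM, filterByExpr, quasi-likelihood test, Benjamini-Hochberg at 0.05), taking the single library to vary as the others do. The step was tested on simulated data, with changes larger than any difference found for the DNA methylation genes. That test does not show what would be called at the size of those differences. For differences between genes in log2(TPM + 1), an exact permutation test (two-sided) ran through all 16 sign patterns of the 4 libraries. Copies were searched with blastn 2.17.0 at 95% identity over at least 100 bases. Limits for 0 counts use 3 counts per library and cover counting error only. Alternatives were DESeq2 1.42.0, other scalings, filters, lengths, pseudocounts and leaving out each library.

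The 10 genes and the 17 lists were chosen with earlier results of these data known. Named beside the 10 genes are, of each pathway list, the 2 highest and the lowest by mean TPM, of each marker list the highest, with markers at 0 counts, and the 3 genes nearest to Dnmt1 and Tet2. Xist, Ddx3y, Gm5648, Tdg-ps and Aire fall outside that rule and are named for a stated match or value. Gadd45a and Gadd45b also fall outside it and are named for their place in a list. A gene that the rule names is not reported here.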

Additional observations from a re-analysis of the deposited data

Results flagged for a closer look

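A library stood apart from the other 3, by the gap to its nearest neighbour relative to the range (Dixon's test for 4 samples), in 5 of 42 genes examined. Chance flags about 1 in 20 groups. Among the DNA methylation genes this was Tet1, with 1.72 TPM in replicate 2 against 2.12 to 2.17 TPM in the others. Mat2a had 371 TPM in replicate 2 against 330 to 336 TPM in the others. Ehmt1 had 50.5 TPM in replicate 3 against 52.9 to 53.0 TPM in the others. Dtl had 27.1 TPM in replicate 4 against 28.3 to 28.4 TPM in the others. Ngp had 0.0543 TPM in replicate 4, a single count, and 0 counts in the others.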

How the results depend on the processing

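The count of 9 expressed genes was 9 with the longest transcript as length, with a TPM threshold of 0.5 and on leaving out any 1 replicate, and 8 with a TPM threshold of 5, with FPKM, and with RPKM on TMM-scaled or DESeq2 size factors. All 49 values of the 8 differences between genes kept their direction. The alternatives were another pseudocount, another length, leaving Dnmt1 out of the sum and leaving out each replicate. Another pseudocount or a missing replicate cannot turn a difference that has the same sign in every library. Only the changed length, the sum without Dnmt1 and the values of Uhrf1 minus Dnmt1 could thus have turned. All 40 mean levels without 1 replicate stayed within 1 SD, but leaving out 1 of 4 values cannot move a mean that far. Counts of all genes called in replicates 1 to 4, which were 9, 0, 3 and 0, became 105, 60, 35 and 16 without a filter on low counts, and 16, 19, 8 and 0 with DESeq2. Leaving out another replicate gave 23 to 341, 3 to 52, 16 to 21 and 2 to 9 calls, the most without replicate 4, 1, 4 and 3 in turn, and the cause was not tested. Of the DNA methylation genes, none was called in any replicate in the main test. In replicate 1 leaving out another replicate called 0 to 2. In replicate 2 it called 0 to 1, as against 1 without a filter on low counts and 1 with DESeq2, which gave no adjusted p for 4 of the 9 genes in replicate 1 and 1 in replicate 2. Over 247 values for these genes under alternatives, 5 gained a call and 10 turned their sign with no call in either. The common coefficient of variation of 0.0852 was 0.102 without the filter. No paired analysis was possible because the labels give a single group. Levels near 1 TPM rest on few counts, and the levels of Tdg and Uhrf1 are limited by copies.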
